A study of Mus musculus with 6 samples.

Results

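The genes described here are 10 negative feedback regulators of MAP kinase signalling, measured in long-term haematopoietic stem cells. These cells, called LT-HSCs, are rare in the marrow and keep blood formation going. The genes are the dual-specificity phosphatases Dusp1, Dusp2, Dusp4, Dusp5, Dusp6 and Dusp10, the Sprouty genes Spry1 and Spry2, and the Spred genes Spred1 and Spred2. Every probe set that the platform annotation gives to 1 of these genes alone was kept, which gave 23 of the 45037 probe sets tested and 10 of the 18193 genes they name. Of the 10 genes, 6 had 1 probe set, and none had a mean in either group within the range of the negative controls.

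The study set dKO LT-HSCs, from MxCre mice in which both c-myc and N-myc (the genes Myc and Mycn) were floxed, against control LT-HSCs, from mice with the same floxed genes and no MxCre. All mice were 8 weeks old, of mixed background, and had received 2 daily doses of pI-pC, a double-stranded RNA that induces interferon and through it the Mx promoter of the recombinase, the last of them 3 days before the cells were taken. The sort of marrow cells took those that were Lin-Sca1+CD150+CD48-, and each of the 3 dKO and 3 control arrays held a separate pool, made from 3 mice in the dKO group and 2 in the control group. The Mx promoter is not limited to stem cells, and the controls carried no Cre, so loss of the Myc genes and presence of the recombinase cannot be told apart by this design.

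ERK, JNK and p38 are the MAP kinases, which are switched on by phosphorylation downstream of growth factor receptors, Ras and Raf, or of stress. Dual-specificity phosphatases take that phosphate off again, each with its own preferred kinase and place in the cell, while Sprouty and Spred proteins act higher up, between the receptor and Raf. Many of these genes are themselves switched on by ERK activity, so that their transcripts are often used as a readout of it as well as a brake on it. In blood stem cells the pathway lies downstream of receptors such as Kit, and Spred1 is known as a restraint on it there.

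Dusp5 and Dusp6, which rose in dKO cells, and Dusp1, which did not pass the test, are shown by the 250 bases before their annotated start. The sequences are RefSeq's, on GRCm38.p6, from chr19:53528895-53529144 on the plus strand for Dusp5, chr10:99262981-99263230 on the plus strand for Dusp6 and chr17:26508473-26508722 on the minus strand for Dusp1. Capitals mark matches on either strand to 5 motifs, namely the E-box CACGTG that Myc with Max can bind, the cyclic AMP response element TGACGTCA, the AP-1 site TGANTCA, the ETS site CCGGAAGT and the CArG box of serum response factor.
Dusp5: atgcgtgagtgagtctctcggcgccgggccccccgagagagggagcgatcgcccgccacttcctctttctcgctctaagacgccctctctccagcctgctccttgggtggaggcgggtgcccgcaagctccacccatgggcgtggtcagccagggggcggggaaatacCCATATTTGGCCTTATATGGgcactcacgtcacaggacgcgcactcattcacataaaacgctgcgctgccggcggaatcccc
Dusp6: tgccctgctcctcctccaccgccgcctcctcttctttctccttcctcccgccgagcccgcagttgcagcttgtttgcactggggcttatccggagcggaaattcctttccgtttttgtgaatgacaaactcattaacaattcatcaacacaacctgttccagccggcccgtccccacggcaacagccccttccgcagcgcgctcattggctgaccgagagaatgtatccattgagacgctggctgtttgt
Dusp1: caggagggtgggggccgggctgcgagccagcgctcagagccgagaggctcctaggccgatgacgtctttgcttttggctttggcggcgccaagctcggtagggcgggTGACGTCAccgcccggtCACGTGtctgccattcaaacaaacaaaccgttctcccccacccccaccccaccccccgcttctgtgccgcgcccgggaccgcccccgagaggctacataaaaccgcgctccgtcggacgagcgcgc

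The capitals of Dusp5 are 2 CArG boxes side by side, CCATATTTGG from 82 to 73 and CCTTATATGG from 72 to 63 bases before the start. A CArG box was present in 1.47% of the 32851 promoter windows of this length in the table. Dusp1 held the cyclic AMP response element, found in 1.55% of windows, at 143 to 136 bases before the start, and an E-box, found in 6.02%, at 126 to 121. None of the 5 motifs overlapped another. Promoters of 9 of the 10 genes were in the table, and the only other match among them was an E-box in Dusp2, at 109 to 104 bases before its start. The AP-1 and ETS motifs, in 6.75% and 2.88% of windows, matched none of the 9. A match of letters describes these windows and does not show that a factor binds there.

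Both deleted genes were lower in the dKO arrays, Mycn at 2 of its 3 probe sets. Myc had log2 values of 7.28, 7.77 and 7.24 in the dKO arrays, against 10.40, 10.57 and 10.12 in the control arrays. The Mycn probe set 1417155_at had 3.40, 3.81 and 3.17 in the dKO arrays, within the negative control range (2.13 to 3.92 over 3 probe sets), against 10.80, 10.87 and 10.76 in the control arrays. Two-sided exact permutation tests gave p = 0.1 for each, the smallest that 3 arrays against 3 allow. The Mycn probe set with the highest mean, 1425922_a_at, was lower but far above the negative controls, at 7.71, 7.08 and 7.20 in the dKO arrays, against 9.23, 8.70 and 8.89 in the control arrays (log2 difference -1.61, limma adjusted p = 0.00938). The third, 1425923_at, had a log2 difference of -0.08 (adjusted p = 0.858). Of the sort markers, Slamf1, which encodes CD150, had log2 values of 9.12, 9.52 and 9.07 in dKO arrays, against 9.04, 9.09 and 9.34 in control arrays. Cd48, whose protein the sort excluded, was at 9.55, 9.66 and 9.03 in dKO arrays, against 8.34, 8.01 and 8.39 in control arrays, so its transcript lay above the negative control range in both groups and was higher in dKO cells (log2 difference 1.16 ± 0.21 SE, limma adjusted p = 0.0214). Ly6a, which encodes Sca1, was not analysed here. As a measure of RNA quality, the 3' minus 5' difference of Gapdh was 2.40 to 2.47 in dKO arrays and 2.12 to 2.36 in control arrays, so it moved with the groups, and its part in the results was not tested.

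Of the 10 genes, 4 had a probe set that rose in dKO cells and 0 had one that fell. Dusp4, Dusp5, Dusp6 and Spred1 rose, by 1.64-fold (Spred1, by the probe set with its highest mean) to 4.39-fold (Dusp5). By probe set, 8 of 23 passed a limma adjusted p of 0.05 as higher, where 3.57% of all probe sets did, and 0 as lower, where 3.41% did. At an unadjusted p under 0.05, 10 were higher and 0 lower, where 10.4% and 11.3% of all probe sets were. With 1 array left out, 5 rose without control replicate 2 and 4 without any other array. By 1 probe set per gene, the one with the highest mean over the 6 arrays, 4 of 10 rose, where 4.49% of all genes did. The median log2 difference of the 10 genes was 0.24, against 0.01 over all 18193 genes. Because RNA of whole pools was measured, a change in how many cells carry a transcript and a change in its amount per cell cannot be told apart.

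**Figure D1:**
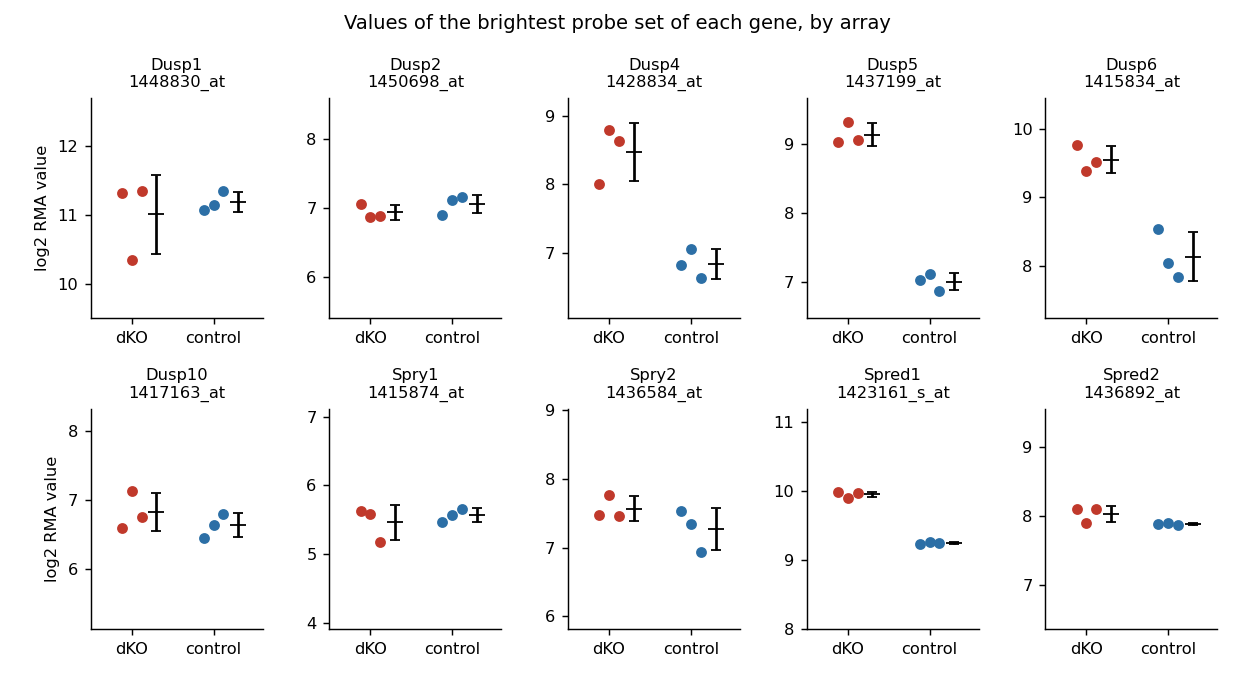
Log2 RMA value (vertical axis, each panel spanning the same 3.2 log2 units) of the probe set with the highest mean of each gene in the 3 dKO (red, left) and 3 control (blue, right) arrays, with the mean and SD of each group beside its points. The dKO and control points are apart for Dusp4, Dusp5, Dusp6 and Spred1, and by a small gap for Spred2, and overlap for the other 5 genes.

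Among the phosphatases, Dusp5, a nuclear phosphatase that acts on ERK, rose most. Its log2 values were 9.03, 9.33 and 9.07 in dKO arrays, against 7.03, 7.12 and 6.87 in control arrays. The groups were far apart, with the lowest dKO array above the highest control array and little spread within either group. The log2 difference was 2.13 ± 0.15 (SE), or 4.39-fold (limma adjusted p = 0.00141).

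Dusp4 encodes another nuclear phosphatase, which acts on ERK and JNK. Its log2 values were 8.00, 8.78 and 8.64 in dKO arrays, against 6.82, 7.06 and 6.63 in control arrays. All dKO arrays were above all control arrays, although dKO replicate 1 was lower than the other two. The log2 difference was 1.63 ± 0.23 (SE), or 3.10-fold (limma adjusted p = 0.0108).

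Dusp6 encodes the cytoplasmic ERK phosphatase, one of the transcripts most often used to follow ERK activity. Its log2 values were 9.76, 9.38 and 9.51 in dKO arrays, against 8.54, 8.04 and 7.84 in control arrays. The groups did not overlap, and the spread was wider among the controls (SD 0.36, against 0.19 in dKO arrays, n = 3 each). The log2 difference was 1.41 ± 0.21 (SE), or 2.66-fold (limma adjusted p = 0.0124). The calls of Dusp4, Dusp5 and Dusp6 were made with any 1 array left out, at adjusted p of 0.0154 to 0.0417, 0.0082 to 0.00942 and 0.0144 to 0.0494.

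Dusp1, the immediate early phosphatase that acts mainly on p38 and JNK, did not pass the test. Its log2 values were 11.31, 10.35 and 11.35 in dKO arrays, against 11.07, 11.15 and 11.35 in control arrays. The dKO values were wide apart because of 1 array: dKO replicate 2 was about a log2 unit below the others, while the other two dKO arrays lay within or beside the control values. The log2 difference was -0.19 (95% interval -0.84 to 0.47, limma adjusted p = 0.771), and without dKO replicate 2 it was 0.14 (adjusted p = 0.702). The same array was also the lowest of the 6 for Fos, Fosb and Jun, immediate early genes looked up after the Dusp1 values were seen. This did not hold for all such genes. In that array Egr1, Ier2 and Ier5 lay above every control array, and Junb was lowest in control replicate 2. Fos had log2 values of 9.90, 8.45 and 10.06 in dKO arrays, against 9.88, 10.37 and 10.51 in control arrays. Fosb had 7.78, 6.29 and 7.36 in dKO arrays, against 6.98, 7.29 and 7.09 in control arrays. Jun had 10.71, 10.05 and 10.67 in dKO arrays, against 10.62, 10.84 and 11.23 in control arrays.

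Dusp2 encodes a nuclear phosphatase of activated blood cells. Its log2 values were 7.06, 6.87 and 6.88 in dKO arrays, against 6.90, 7.11 and 7.16 in control arrays, so the groups overlapped. The log2 difference was -0.12 (95% interval -0.45 to 0.21, limma adjusted p = 0.695). Dusp10 encodes a phosphatase of JNK and p38, and its pair of probe sets overlapped between the groups. The brighter, 1417163_at, had 6.59, 7.13 and 6.75 in dKO arrays, against 6.45, 6.64 and 6.80 in control arrays, a log2 difference of 0.19 (95% interval -0.24 to 0.62, limma adjusted p = 0.624). The other, 1417164_at, had a log2 difference of 0.39 (95% interval -0.18 to 0.95, adjusted p = 0.422). The intervals of Dusp2, Dusp10 and Dusp1 leave room for changes of less than 1 log2 unit in either direction, and do not reach the values measured for Dusp4, Dusp5 or Dusp6.

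**Figure D2:**
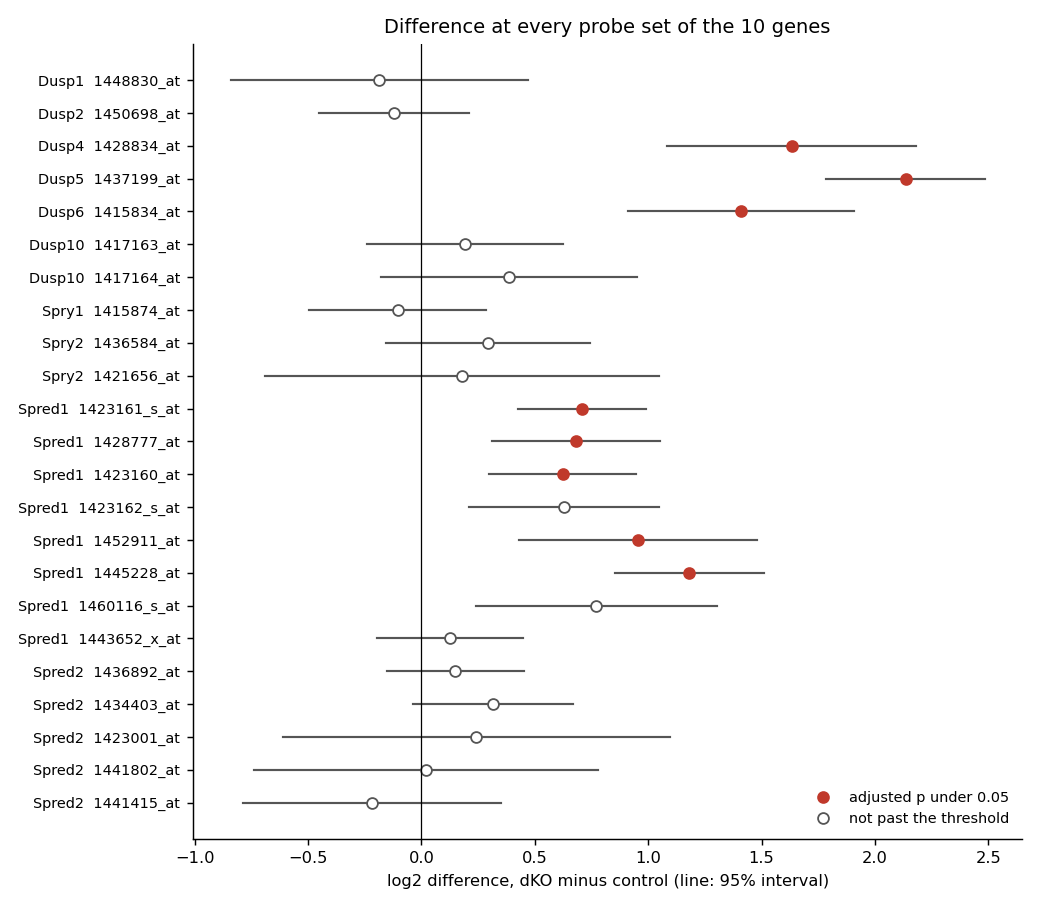
Log2 difference, dKO minus control (horizontal axis), at each of the 23 probe sets, with its 95% interval from limma and filled points for an adjusted p under 0.05. The filled points belong to Dusp4, Dusp5, Dusp6 and 5 of the 8 Spred1 probe sets, and range from 0.62 to 2.13.

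Spred1 encodes a membrane protein that brings the Ras inhibitor neurofibromin to Ras. It had 8 probe sets, of which 7 had all dKO arrays above all control arrays and 5 passed the test. Groups apart in this direction were found at 13.4% of all probe sets. The 8 probe sets came from 4 source sequences, so they repeat each other in part and count as 1 gene. The probe set with the highest mean, 1423161_s_at, had log2 values of 9.98, 9.90 and 9.96 in dKO arrays, against 9.23, 9.25 and 9.24 in control arrays. Its values hardly varied within a group, and the log2 difference was 0.71 ± 0.12 (SE, limma adjusted p = 0.018).

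The largest Spred1 difference was that of 1445228_at, with 9.12, 8.87 and 9.18 in dKO arrays, against 7.83, 7.88 and 7.93 in control arrays. This is a log2 difference of 1.18 ± 0.14 (SE), or 2.27-fold (limma adjusted p = 0.00597), and the call was made with any 1 array left out. The other called probe sets, 1452911_at, 1428777_at and 1423160_at, had log2 differences of 0.95, 0.68 and 0.62 (adjusted p = 0.0496, 0.0474 and 0.0416). The pair of probe sets that missed the threshold with groups apart, 1460116_s_at and 1423162_s_at, had 0.77 and 0.63 (adjusted p = 0.0962 and 0.0882). The dimmest, 1443652_x_at, had 4.78, 4.97 and 5.03 in dKO arrays, against 4.71, 4.88 and 4.80 in control arrays, a log2 difference of 0.13 (adjusted p = 0.669). It shares its source sequence with 1460116_s_at, and its name marks probes that can also bind other transcripts. With 1 array left out, 1423161_s_at, 1428777_at and 1423160_at each lost the call whichever array it was, at adjusted p of 0.0517 to 0.0632, 0.0679 to 0.129 and 0.058 to 0.124. The probe set 1452911_at kept it only without control replicate 2 (adjusted p = 0.0458), with up to 0.138 without another. With the mean over its 8 probe sets, the Spred1 log2 difference was 0.71 ± 0.12 (SE, adjusted p = 0.0105 over genes).

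**Figure D3:**
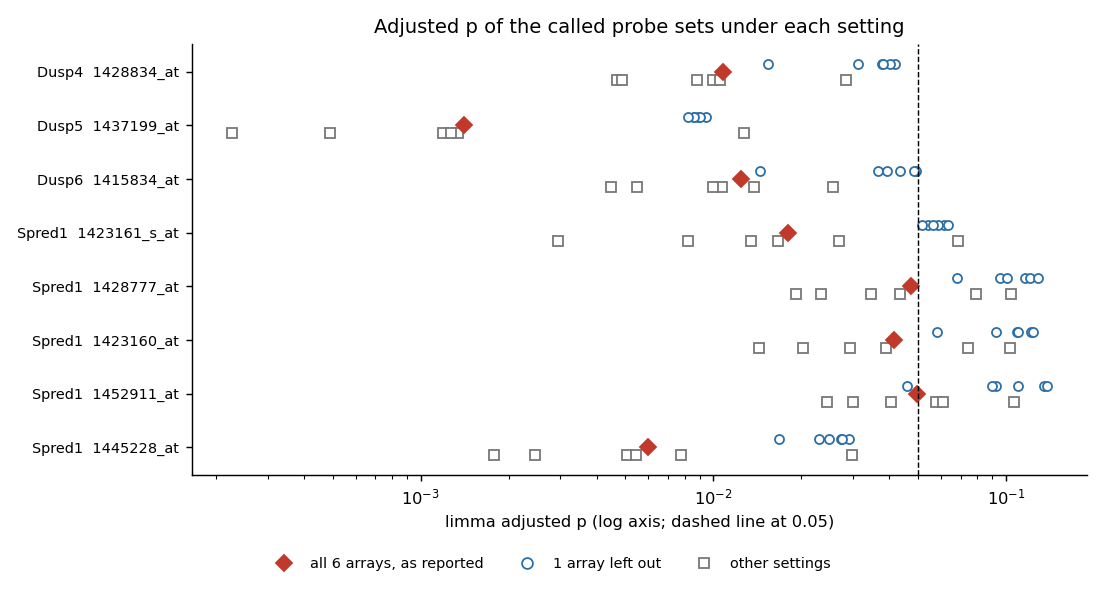
Limma adjusted p (horizontal log axis, dashed line at 0.05) of the 8 called probe sets with all arrays (diamonds), with 1 array left out (circles) and under 6 other settings (squares). Circles and squares of Dusp4, Dusp5, Dusp6 and the Spred1 probe set 1445228_at all lie left of the line, and those of the other 4 Spred1 probe sets spread over it.

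Spred2 encodes the close relative of Spred1, and none of its 5 probe sets passed the test. The probe set with the highest mean, 1436892_at, had log2 values of 8.10, 7.89 and 8.10 in dKO arrays, against 7.88, 7.89 and 7.87 in control arrays. These groups touch without overlapping, and the log2 difference was 0.15 (95% interval -0.15 to 0.45, limma adjusted p = 0.579). The other 4 had log2 differences between -0.22 and 0.31, with overlapping groups and adjusted p of 0.283 or more.

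Spry1 and Spry2 encode Sprouty proteins, which are phosphorylated after growth factor receptors are engaged and then hold back the step to Ras and Raf. Spry1 had log2 values of 5.63, 5.59 and 5.17 in dKO arrays, against 5.47, 5.57 and 5.66 in control arrays. The groups overlapped, with a log2 difference of -0.10 (95% interval -0.49 to 0.29, limma adjusted p = 0.785). The brighter Spry2 probe set, 1436584_at, had 7.47, 7.77 and 7.46 in dKO arrays, against 7.53, 7.35 and 6.94 in control arrays, which also overlap. Its log2 difference was 0.29 (95% interval -0.16 to 0.75, adjusted p = 0.445), and that of the dimmer 1421656_at was 0.18 (-0.69 to 1.05, adjusted p = 0.842).

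The profiles nearest to those of the pair of genes with the largest differences were found among 18192 others, as the smallest root mean square difference over the 6 arrays after each gene was centred on its mean. For Dusp5 these were Trp53inp2 (0.14 log2 units), Akr1c12 (0.16) and Pstpip2 (0.17), with log2 differences between the groups of 1.94, 2.38 and 2.01. For Dusp4 they were Tgfbi (0.12), BC023105 (0.15) and Lgals1 (0.16), with 1.68, 1.52 and 1.80. Likeness over 6 arrays in 2 groups is in large part likeness of the group difference.

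The rest of the pathway was described by 6 lists with 116 genes, of which 106 had a probe set of their own. Of the 106, 15 rose and 3 fell, where 4.49% and 3.56% of all genes did. With 1 array left out, 10 (without dKO replicate 1) to 12 of the 106 passed, with 11 without dKO replicate 3 or control replicate 2 or 3. None of 9 other dual-specificity phosphatases of MAP kinases passed limma's test in either direction (median log2 difference -0.01). At an unadjusted p under 0.05, 1 of the 9, Dusp22, was lower, where 10.8% of all genes were. Dusp22 had log2 values of 5.52, 5.92 and 4.95 in dKO arrays, against 6.02, 6.12 and 6.24 in control arrays, a log2 difference of -0.66 (adjusted p = 0.175). Those of Dusp7 and Dusp19 were 0.16 and 0.27 (adjusted p = 0.545 and 0.602). The Dusp7 value is that of 1427416_x_at, whose name marks probes that can also bind other transcripts. Dusp7 1452097_a_at and 1460393_a_at differed from it in sign, at -0.25 and -0.22 (adjusted p = 0.443 and 0.43). Dusp19 1440572_at also differed in sign from the brightest, at -0.56 (adjusted p = 0.263). Each of these had all dKO arrays below all control arrays. The remaining Dusp19 probe set, 1448922_at, had the sign of the brightest, at 0.15 (adjusted p = 0.658).

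Of all genes, 4.49% rose and 3.56% fell. Of 17 other restraints on Ras and ERK, 1 rose and 0 fell, with a median of 0.05. It was Spry4, another Sprouty gene, at 5.24, 5.87 and 5.96 in dKO arrays, against 4.77, 4.78 and 4.70 in control arrays (log2 difference 0.94 ± 0.21 SE, limma adjusted p = 0.0416). Its call was lost without any 1 array other than dKO replicate 1, with adjusted p of up to 0.124. Of its 3 other, dimmer probe sets, 1445669_at also passed (log2 difference 0.91, adjusted p = 0.0137), but its means lay in the negative control range in both groups, so it does not measure the gene above background. Rasa2 and Sh2b3, a Ras inhibitor and an adaptor that restrains cytokine receptors, differed by 0.73 and 0.40 on the log2 scale (adjusted p = 0.235 and 0.26). A second Sh2b3 probe set, 1450183_a_at, was higher by 0.84 (adjusted p = 0.0204).

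Of 21 genes of the ERK cascade itself, 0 rose and 0 fell in limma's test at their brightest probe sets (median 0.13). The smallest p were those of Rasgrp1, which loads Ras with GTP, Nras, a Ras protein, and Rps6ka3, a kinase that ERK activates. Their log2 differences were 0.83, 0.45 and 0.61 (adjusted p = 0.0515, 0.0838 and 0.0868), with dKO arrays above control arrays in each. At an unadjusted p under 0.05, 6 of the 21 were higher and 2 lower, where 12.3% and 10.8% of all genes were. A second Rps6ka3 probe set, 1427299_at, was higher by 1.08 (adjusted p = 0.0371). Without dKO replicate 3 or control replicate 1, and with median centring, quantile normalization or array weights, 1 gene of the cascade rose. With dim probe sets left out or a trended and robust prior 2 rose, and with the mean over the probe sets of a gene 2 rose and 1 fell.

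In the JNK, p38 and ERK5 branches, 3 of 24 genes rose and 1 fell (median 0.36), where 4.49% and 3.56% of all genes did. Map2k6, which activates p38, was at 5.29, 5.79 and 5.45 in dKO arrays, against 7.41, 7.33 and 7.07 in control arrays, and fell by 1.76 ± 0.18 on the log2 scale (SE, limma adjusted p = 0.00389). Gadd45g, which binds and activates a kinase upstream of p38 and JNK, was at 8.47, 8.32 and 8.32 in dKO arrays, against 6.34, 7.04 and 7.19 in control arrays (log2 difference 1.51 ± 0.23 SE, adjusted p = 0.0136). Its adjusted p was 0.0542 without dKO replicate 1. Map3k5, a stress-activated kinase, had 9.43, 9.84 and 9.90 in dKO arrays, against 8.69, 8.79 and 8.82 in control arrays (log2 difference 0.96 ± 0.16 SE, adjusted p = 0.019). It lost the call without any 1 array other than dKO replicate 1, with adjusted p of up to 0.0678. A second Map3k5 probe set, 1421340_at, did not pass, at 0.81 (adjusted p = 0.116), with all dKO arrays above all control arrays. The third gene that rose was Map3k8, a kinase that activates the ERK cascade, named because it completes the count, at 6.76, 7.16 and 6.60 in dKO arrays, against 5.87, 5.79 and 5.87 in control arrays (adjusted p = 0.0196). With 1 array left out, 1 gene (without dKO replicate 1 or control replicate 2 or 3) or 2 genes of these branches rose.

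Transcripts listed as following ERK activity moved in part. The list also holds Elk1, Elk3 and Srf, transcription factors that act downstream of ERK, whose transcripts are not established readouts of it. Of 25 measured, 11 rose and 0 fell, where 4.49% and 3.56% of all genes did. Of the 25, 14 had every dKO array above every control array, where 15.8% of all genes did, and the median was 0.35. Hbegf, a ligand of the epidermal growth factor receptor, had log2 values of 7.81, 7.84 and 7.71 in dKO arrays, against 5.40, 5.64 and 5.86 in control arrays (log2 difference 2.15 ± 0.16 SE, limma adjusted p = 0.00171). Fosl2, an AP-1 subunit, had 9.85, 9.62 and 9.87 in dKO arrays, against 7.50, 7.89 and 7.67 in control arrays (2.10 ± 0.16, adjusted p = 0.00177). The G1 cyclin Ccnd1 had 8.88, 8.64 and 8.92 in dKO arrays, against 7.13, 6.94 and 6.65 in control arrays (1.91 ± 0.17, adjusted p = 0.00272). These 3 had groups far apart at their brightest probe sets, like Dusp5. A second Fosl2 probe set, 1422931_at, was higher by only 0.87 (adjusted p = 0.0275). The other Hbegf and Ccnd1 probe sets also passed, with log2 differences of 1.73 to 2.70.

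The other 8 that rose were Egr1, Phlda1, Maff, Etv5, Ier5, Lif, Ier2 and Elk1, with log2 differences from 0.61 (Ier2) to 1.63 (Egr1), and a measured 2.81 for Phlda1, whose control mean of 3.76 lay in the negative control range. Etv5 encodes an ETS factor and, like Dusp6 and Spry4, is a textbook transcript of growth factor signalling through ERK. It had 9.37, 9.31 and 9.56 in dKO arrays, against 8.53, 7.93 and 8.51 in control arrays (1.09 ± 0.20 SE, adjusted p = 0.0222). Etv4, Fosl1 and Plaur of the same list did not pass, at 0.29, -0.04 and 0.17 (limma adjusted p = 0.599, 0.906 and 0.65). Other immediate early genes did not pass: besides Fos and Jun, at log2 differences of -0.78 and -0.42 (adjusted p = 0.35 and 0.372), these included Junb at 0.12 (0.7) and Egr3 at -0.11 (0.703). A second Jun probe set, 1448694_at, had -0.88 (adjusted p = 0.0722), with all dKO arrays below all control arrays. Egr2, Ier3 and Srf had all dKO arrays above all control arrays and did not pass, at log2 differences of 2.12, 0.35 and 0.31 (adjusted p = 0.171, 0.298 and 0.255). With 1 array left out, 5 (without dKO replicate 1 or 3) to 7 genes of the list rose, with 6 without control replicate 1.

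Of 10 receptors upstream of the pathway, 0 rose and 2 fell (median -0.25), where 4.49% and 3.56% of all genes did. Tek, the angiopoietin receptor Tie2, was at 6.28, 6.72 and 6.86 in dKO arrays, against 8.78, 8.92 and 8.91 in control arrays, and fell by 2.25 ± 0.18 (SE, limma adjusted p = 0.0022). Kit, the stem cell factor receptor, was at 9.31, 9.30 and 9.22 in dKO arrays, against 10.14, 10.10 and 10.19 in control arrays, and fell by 0.87 ± 0.12 (adjusted p = 0.0101). Il6st, the shared chain of the interleukin-6 receptor family, had a log2 difference of -0.34 (adjusted p = 0.241) by its brightest probe set, while another, 1460295_s_at, was lower by 0.95 (adjusted p = 0.032).

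**Figure D4:**
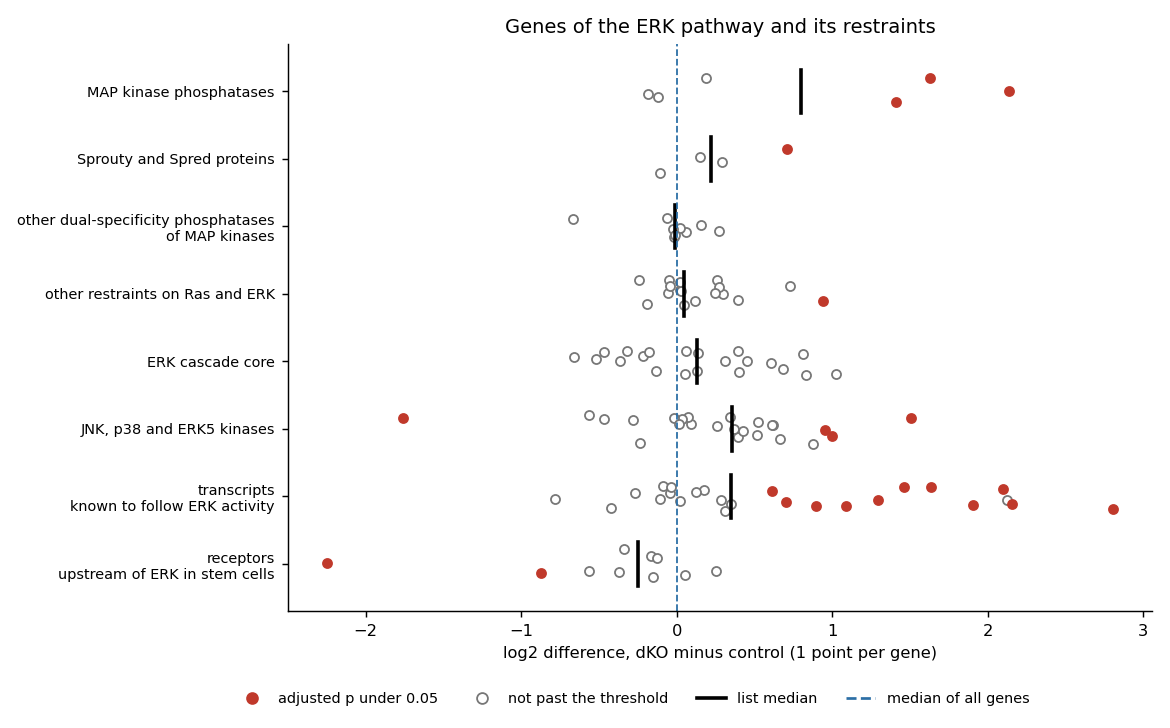
Log2 difference, dKO minus control (horizontal axis), of every measured gene of the phosphatase and Sprouty groups and of the 6 other lists, 1 point per gene by its probe set with the highest mean, filled for an adjusted p under 0.05, with list medians as bars and the median of all genes as a dashed line. Filled points on the right number 11 of 25 for the transcripts listed as following ERK and 3 for the phosphatases of the first row. The JNK, p38 and ERK5 kinases have 3, Sprouty and Spred proteins and the other restraints 1 each, and the other lists 0.

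Of the cell type markers, 10 of the LT-HSC list were measured, of which Gata2 rose and Tek, Kit, Hlf and Mllt3 fell (median log2 difference -0.41). Over all genes, 4.49% were called higher and 3.56% lower. The summed linear signal of the LT-HSC list was 11208 to 12519 in dKO arrays and 14597 to 15257 in control arrays. Of 8 megakaryocyte and platelet genes, several of which stem cells also express, Ppbp, Itga2b, Thbs1 and Pf4 rose and Vwf fell. Groups were apart upward for 5 of the 8, where 15.8% of all genes were, and downward for 2, Vwf and Treml1. Treml1 did not pass (log2 difference -0.95, limma adjusted p = 0.0878). The summed signal of the 8 was 7390 to 11882 in dKO arrays and 3347 to 3853 in control arrays. It rests largely on Pf4 and, in dKO arrays, Ppbp, with mean log2 values of 12.16 and 11.49 in dKO arrays and 11.04 and 5.8 in control arrays. Of 11 macrophage and monocyte genes, C1qb, Mrc1 and Fcgr1 were called higher and 0 lower. Groups were apart upward for 5 of the 11, where 15.8% of all genes were. They were apart downward for 1, Adgre1 (log2 difference -0.46, limma adjusted p = 0.0897). The control mean of Mrc1, 3.90, lay in the negative control range. The summed signal of the 11 was 711 to 760 in dKO arrays and 370.0 to 500.0 in control arrays. No gene of these 3 lists had both means in the negative control range. Marker genes were named after their values were seen, and their part in the rise of Dusp4, Dusp5, Dusp6 and Spred1 was not tested.

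Of 10 T and NK cell, 7 B cell and 11 granulocyte genes, 0 were called higher or lower by limma. At an unadjusted p under 0.05, 1 T and NK cell gene was higher, and 1 B cell and 2 granulocyte genes were lower. Over all genes, 12.3% were higher and 10.8% lower at that level. Of 8 erythroid genes, Klf1 fell and 0 rose. The summed signal of the T and NK cell genes was 398 to 501 in dKO arrays and 376 to 413 in control arrays, and that of the B cell genes 334 to 600.4 in dKO arrays and 373 to 685.0 in control arrays. The granulocyte genes summed to 399 to 1381 in dKO arrays and 948 to 2867 in control arrays, and the erythroid genes to 294.0 to 435 in dKO arrays and 564 to 617 in control arrays. Of these 4 lists, Ncr1, Blnk, Ms4a1, Lcn2, Mmp8, Hba-a1 and Rhag had both means in the negative control range.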

How the data were processed

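In all, 6 arrays were measured, 3 of dKO and 3 of control LT-HSC pools, from total RNA that, per the labels' protocols, was amplified over 2 rounds before biotin labelling, which can compress differences. The authors deposited log2 expression values made with RMA, per the submitters' processing notes, which give no version. RMA as usually run corrects background, scales arrays to each other and summarizes probes, so all changes are relative, and the amount of RNA in a cell is not measured. The log2 scale was read from the values, 1.49 to 13.80 over the probe sets tested. Array medians were 5.89 to 5.97, correlations across probe sets 0.974 to 0.981 within and 0.956 to 0.969 between groups. The arrays' number limits the precision.

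Groups and replicate numbers came from the sample titles. The label of control replicate 2 writes M-Myc where the others write N-myc. The 45037 probe sets left after 64 array controls were fitted with limma 3.58.1 in R 4.3.3 (lmFit, eBayes, default settings, dKO minus control, 4 residual and 3.19 prior degrees of freedom), and p-values were adjusted by Benjamini-Hochberg over all of them, with a threshold of 0.05. SE and 95% intervals are limma's. Each pool counts as 1 sample. Equal replicate numbers were checked for pairing: the correlations of their deviations from group means were -0.02, 0.00 and 0.01, so no block was used. The negative controls are the 3 array control probe sets for the bacterial tryptophan gene, and a level above their range can still be background.

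Probe sets were named by a platform annotation table: 34945 had 1 gene symbol, 932 several and 9160 none, and only the first were named. Gene lists use the probe set with the highest mean. A listed gene without such a probe set is not analysed here. The members and lists were chosen with earlier results of these data known, and lists are given by counts and medians, with no test. Named were all members, Myc and Mycn, the 3 genes with the smallest p of each pathway list, and the 3 nearest profiles of each of the pair of members that differed most. Other genes were named after their values were seen. Promoter motifs were searched on both strands in the 250 bases before each start.

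Simulated data of this size had 200 of 45037 probe sets changed. There the fit found 37% of probe sets changed by 1 and 71% of those changed by 2 log2 units, with 3 false calls. The real arrays gave 3146 calls, and the share found depends on how many probe sets change. The simulated shares therefore do not give the power of this comparison. Alternatives were other scalings, a filter on level, another prior, array weights, a replicate block, probe set means and leaving out each array.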

Additional observations from a re-analysis of the deposited data

How the results depend on the processing

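Set against 3146 probe sets called over the array and 8 called higher among the members, quantile normalization called 5 member probe sets, and the replicate block called 1530 probe sets and 4 of the members'. No label says whether the numbers shared by the groups pair the arrays, and pairing at single genes was not tested. The block also takes degrees of freedom from the fit. With 1 array left out, 1338 to 1674 probe sets, 4 to 5 member probe sets and 10 to 12 genes of the other pathway lists were called, against 18 with all arrays, with fewer samples in each fit. Dusp4, Dusp5, Dusp6 and the Spred1 probe set 1445228_at passed in each of the 12 settings. Under the other scalings, the filter, the other prior and array weights, 5 to 9 member probe sets were higher, and 0 were lower in any setting. The other Spred1 probe sets lie near the threshold, and the cause of their lost calls was not tested.

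Signs turned only at probe sets that never passed. The log2 difference ran from -0.36 to 0.14 for Dusp1, -0.19 to 0.0398 for Spry1, -0.15 to 0.51 for Spry2 1421656_at, -0.16 to 0.54 for Spred2 1423001_at, -0.33 to 0.22 for Spred2 1441802_at and -0.19 to 0.0757 for Mycn 1425923_at with 1 array left out, and was -0.0490 for Spred2 1441802_at with array weights. The filter on level takes out the dim probe sets. RMA compresses differences of dim probe sets, among them Spry1, Spry4 and the dimmer ones of Spry2, Spred1 and Spred2.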
